A study of Mus musculus with 4 samples.

Results

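Carbonic anhydrases interconvert carbon dioxide and bicarbonate, and 7 genes of the family (Car1, Car2, Car4, Car8, Car9, Car12 and Car13) were followed here in colon tumours of mice. They were found in the gene table by symbol. All 7 were listed among 14979 genes, and all 7 had enough tags to be among the 14331 genes tested. The enzymes were selected on family membership with their levels and their MAdCAM1 minus IgG differences already known. Those differences are given as a description and support nothing. The same holds for members' p-values from the fits over all genes. Of 9 other family genes searched for, Car5b was listed, and Car3, Car5a, Car6, Car7, Car10, Car11, Car14 and Car15 were not analysed here.

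The tumours came from the AOM/DSS model, in which the carcinogen azoxymethane is combined with dextran sulfate sodium, a chemical that inflames the colon. MAdCAM1 denotes tumours from mice that received an anti-inflammatory antibody against MAdCAM-1, the adhesion molecule of gut venules, and IgG denotes tumours from mice treated with control IgG. There were 2 mice in each group and 1 library per mouse, and the labels give no strain, age, sex or dose. RNA was measured by CAGE, the cap analysis of gene expression, which counts short tags from capped 5′ ends, so that a count does not grow with the length of the RNA and levels of different genes can be set side by side in CPM (tag counts relative to library size, adjusted by TMM). The libraries held 14850923 and 15895228 tags in MAdCAM1 and 16891234 and 15727936 tags in IgG.

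In the normal colon, absorptive cells near the mucosal surface hold abundant cytosolic carbonic anhydrase, which supplies the bicarbonate and protons exchanged for chloride and sodium at the cell membrane. These enzymes are known as markers of differentiated colonocytes and as genes that are often low in colorectal tumours. Car9 and Car12 are instead cell-surface enzymes known from tumours short of oxygen, where they help cells to export acid. Car9 is a classic target of the hypoxia-inducible transcription factor HIF-1, and in humans the Car12 counterpart is also made by normal colon epithelium. Car8 has no enzymatic activity.

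The 5′ flanks of Car9, Car4 and Car12 are shown because CAGE counts RNA at its start, because Car4 and Car9 had the largest fold changes of the 7, and because Car12 is the other enzyme linked to hypoxia. The RefSeq promoter table (GRCm38.p6) held windows for 3 of the 7 genes, each running from 250 bases before to 50 bases after a start site. Each window matched GRCm39, the build of the deposited table, at 1 place on its chromosome, on the + strand: chr4:43506776-43507075 for Car9, chr11:84848330-84848629 for Car4 and chr9:66620718-66621017 for Car12. Capitals mark every match on either strand to 5 motifs. The hypoxia response element is represented by its core ACGTG, which reads CACGT where it lies on the other strand. The motif of the CDX factors is represented by CCATAAA and that of HNF4A by CAAAGTCCA. For the Wnt factors TCF and LEF the letters CTTTGAT were used, and for the TATA box the letters TATAAA.
Car9: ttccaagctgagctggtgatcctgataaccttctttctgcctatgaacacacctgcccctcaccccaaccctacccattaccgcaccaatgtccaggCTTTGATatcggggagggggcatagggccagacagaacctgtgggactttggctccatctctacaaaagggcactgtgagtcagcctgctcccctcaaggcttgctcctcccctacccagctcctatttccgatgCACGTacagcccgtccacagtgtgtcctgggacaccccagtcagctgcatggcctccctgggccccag
Car4: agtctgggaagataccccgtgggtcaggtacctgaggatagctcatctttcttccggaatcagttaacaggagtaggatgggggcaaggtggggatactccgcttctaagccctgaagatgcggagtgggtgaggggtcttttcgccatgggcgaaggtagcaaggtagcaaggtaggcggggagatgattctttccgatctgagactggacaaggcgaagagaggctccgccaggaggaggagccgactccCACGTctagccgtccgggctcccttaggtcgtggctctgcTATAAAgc
Car12: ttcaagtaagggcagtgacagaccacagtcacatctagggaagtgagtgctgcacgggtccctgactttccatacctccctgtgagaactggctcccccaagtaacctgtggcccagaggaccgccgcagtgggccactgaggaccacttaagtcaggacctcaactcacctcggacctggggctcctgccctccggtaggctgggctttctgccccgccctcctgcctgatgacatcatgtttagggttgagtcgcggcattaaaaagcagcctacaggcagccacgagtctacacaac

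The Car9 window held the hypoxia response core once, on the opposite strand, with its first base at position −18 relative to the annotated start base, and CTTTGAT at position −153. The Car4 window also held the hypoxia response core, at position 2, and TATAAA at position 42, which lies after the annotated start. None of the 5 motifs was found in the Car12 window. Of 32851 promoter windows of the same length, 19.6% held ACGTG, 13.6% TATAAA, 3.73% CTTTGAT, 2.75% CCATAAA and 0.475% CAAAGTCCA, so a match to the hypoxia core is common. A match describes letters, not a site in use. GENCODE M39 annotates 7 start sites for Car9, 13 for Car4 and 8 for Car12, and the table sums tags per gene, so the start that was used is not resolved.

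The comparison of MAdCAM1 with IgG tumours asks how carbonic anhydrases of mature colonocytes and those linked to hypoxia stood after treatment with the antibody. Car4 and Car9, 1 from each class, had the largest differences among the 7, and both MAdCAM1 libraries also exceeded both IgG libraries for Car2 and Car8. Car1, Car12 and Car13 overlapped between the groups. Within each class the fold changes were far apart, and the sign of Car12 was set by 1 library, IgG 1.

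**Figure D1:**
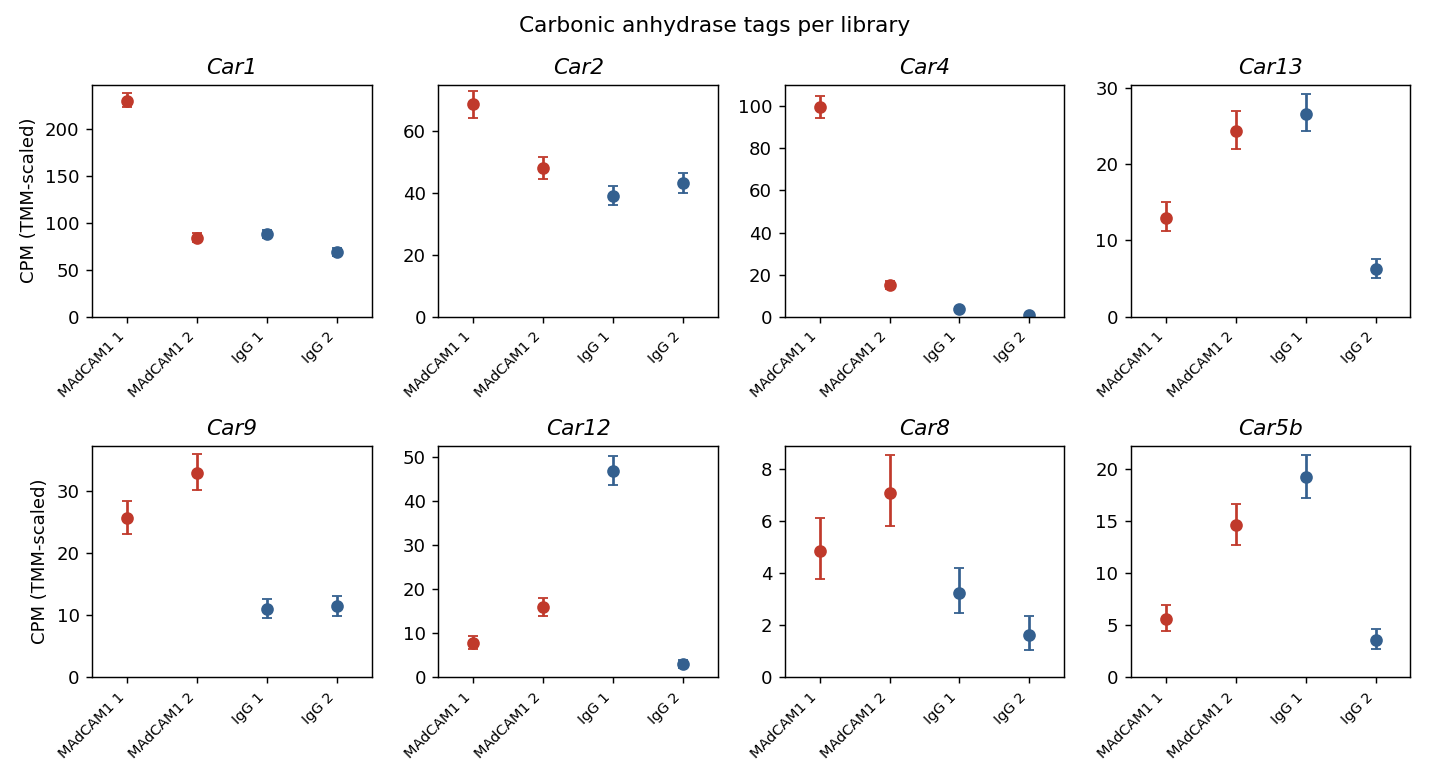
CPM of the 7 enzymes and Car5b in each library (y axes from 0, different in each panel), with 95% exact Poisson intervals for counting error only; red points are MAdCAM1 libraries and blue points IgG libraries. Car4 and Car9 are higher in both MAdCAM1 libraries, while Car12, Car13 and Car5b are highest in IgG 1 and lowest in IgG 2.

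Car1 encodes a cytosolic enzyme abundant in colonocytes and red blood cells (chromosome 3, 14831269 to 14873459, GRCm39, − strand). Its level was 230 and 83.8 CPM in MAdCAM1 1 and MAdCAM1 2, against 88.0 and 68.4 CPM in IgG 1 and IgG 2. MAdCAM1 1 was high and the other 3 libraries lay close together, with MAdCAM1 2 below IgG 1. The log2 fold change was 1.01 (SE 0.53, n = 2 per group), and it was 0.10 without MAdCAM1 1. Car1 was the most abundant of the 7 in every library, at the 88.0th percentile of mean level over all tested genes. A processed pseudogene on the same strand inside it, Gm16399, had 247 and 262 tags in MAdCAM1 against 183 and 177 in IgG, beside 3290 and 1294 tags of Car1 in MAdCAM1 and 1546 and 1106 in IgG.

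Car2 encodes the fast cytosolic enzyme of many epithelia (chromosome 3, 14951317 to 14967568, + strand). It stood at 68.7 and 48.0 CPM in MAdCAM1 and at 39.0 and 43.2 CPM in IgG. The groups did not overlap, but the counting interval of MAdCAM1 2 (44.6 to 51.6 CPM) met that of IgG 2 (40.0 to 46.5 CPM). Its log2 fold change of 0.50 (SE 0.23) was the smallest among the 4 members whose groups did not overlap. Relative to Epcam, a surface protein of epithelial cells, the groups overlapped: there were 21.6 and 17.1 Car2 tags per 1000 Epcam tags in MAdCAM1 and 20.1 and 21.1 in IgG. As in any bulk tissue, fewer cells of a type and less RNA per cell cannot be told apart here.

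Car13, another cytosolic enzyme, lies in the same gene cluster (chromosome 3, 14706783 to 14728077, + strand). Its level was 13.0 and 24.4 CPM in MAdCAM1 and 26.6 and 6.18 CPM in IgG. The highest and the lowest library both belonged to IgG, which differed by 4.31-fold between its mice. The log2 fold change of 0.19 (SE 0.78) took the other sign without IgG 2 (−0.51) and without MAdCAM1 2 (−0.34). Car13, Car1, Car3 and Car2 are the protein-coding genes of this cluster and lie in that order over 260.8 kb. The 3 that were measured did not share a profile, since Car1 and Car2 were highest in MAdCAM1 1 and Car13 in IgG 1.

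Car4 encodes an enzyme held on the outer face of the apical membrane by a lipid anchor, where it acts beside bicarbonate transporters (chromosome 11, 84848020 to 84856879, + strand). It had 1425 and 230 tags in MAdCAM1, against 59 and 12 tags in IgG, which is 99.8 and 14.9 CPM against 3.36 and 0.742 CPM. Both MAdCAM1 libraries were above both IgG libraries, and the counting intervals of the nearest pair were apart (13.0 to 16.9 CPM in MAdCAM1 2, 2.56 to 4.33 CPM in IgG 1). The spread within groups was wide, at 6.70-fold between the MAdCAM1 mice and 4.52-fold between the IgG mice. The log2 fold change was 4.79 (SE 1.30), and it was 2.85 without MAdCAM1 1 and 6.23 without IgG 1. Car4 made up 21.9% (95% Wilson interval 20.9 to 22.9%) and 6.17% (5.44 to 6.98%) of all carbonic anhydrase tags in MAdCAM1, and 1.42% (1.10 to 1.82%) and 0.538% (0.308 to 0.937%) in IgG. These intervals cover counting error only.

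Car9, the hypoxia-induced enzyme of the cell surface (chromosome 4, 43506966 to 43513729, + strand), was the member with the least spread relative to its difference. It had 365 and 508 tags in MAdCAM1 and 193 and 184 tags in IgG. In CPM the means were 29.2 ± 5.19 in MAdCAM1 and 11.2 ± 0.28 in IgG (SD, n = 2 each). The log2 fold change of 1.39 (SE 0.21) lay between 1.19 and 1.56 when any 1 library was left out. Relative to Epcam the log2 difference was smaller, at 0.79, and the groups stayed apart, at 8.02 and 11.7 Car9 tags per 1000 Epcam tags in MAdCAM1 and 5.65 and 5.55 in IgG. A long non-coding gene on the opposite strand, Gm12454, overlaps Car9 and had 64 and 53 tags in MAdCAM1 against 28 and 28 in IgG; the sources do not say whether counting used strand, so tags of the pair cannot be told apart.

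Car12, the other surface enzyme linked to hypoxia (chromosome 9, 66615426 to 66674186, + strand), did not go with Car9. It stood at 7.84 and 15.9 CPM in MAdCAM1 and at 46.8 and 2.97 CPM in IgG. IgG 1 was the high library and IgG 2 the low one, a 15.8-fold difference between mice of the same group. The log2 fold change of −1.06 (SE 1.28) was set by IgG 1 and turned to 1.99 without it. Per Car9 tag there were 0.307 and 0.484 Car12 tags in MAdCAM1, and 4.26 and 0.261 in IgG. Aph1b, which overlaps Car12 on the opposite strand, had 63 and 65 tags in MAdCAM1 and 90 and 86 in IgG, and did not show the high value of IgG 1.

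Car8, which binds no zinc and is known in neurons as a partner of the inositol trisphosphate receptor, had the lowest mean level of the 7 (chromosome 4, 8141533 to 8239088, − strand). It had 69 and 109 tags in MAdCAM1 and 57 and 26 tags in IgG, or 4.83 and 7.06 CPM against 3.24 and 1.61 CPM. The groups were apart, but the counting intervals of MAdCAM1 1 (3.76 to 6.11 CPM) and IgG 1 (2.46 to 4.20 CPM) met. Its log2 fold change was 1.29 (SE 0.50), and per 1000 Epcam tags the groups overlapped at 1.52 and 2.51 in MAdCAM1 and 1.67 and 0.785 in IgG.

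Car5b, the mitochondrial enzyme, resembled Car13 and Car12 more than the rest of the family. It stood at 5.60 and 14.6 CPM in MAdCAM1 and 19.2 and 3.59 CPM in IgG, with a log2 fold change of −0.17 (SE 0.94; edgeR quasi-likelihood adjusted p = 0.983). Car12, Car13 and Car5b had the same order of libraries, IgG 1 highest, then MAdCAM1 2, MAdCAM1 1 and IgG 2, an order found in 742 of 14331 tested genes (5.18%). The distance between centred log2 profiles over the 4 libraries was 0.516 between Car13 and Car5b, the smallest of all pairs in the family, and 5.45 between Car4 and Car12, the largest. These distances describe 4 libraries and are no test.

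Over all tested genes, edgeR's quasi-likelihood test called 0 of 14331 genes (0%) after Benjamini-Hochberg adjustment and had 730 higher (5.09%) and 261 lower (1.82%) at an unadjusted p under 0.05, and limma-voom also called 0 (0%). Of the 7 members 0 were called by these tests, 2 had an unadjusted p under 0.05 and were higher, and edgeR's exact test and DESeq2 each called Car4 and Car9. Over all genes the exact test called 1.06% as higher and 0.0628% as lower, and DESeq2 1.53% as higher and 0.14% as lower. Both MAdCAM1 libraries were above both IgG libraries for 4 of 7 members, against 19.7% of tested genes, and 0 of 7 were below, against 18.7%. The members' median log2 fold change was 1.01, against −0.001 over all tested genes. Nothing is read from these counts, because the members were picked with this contrast in view. Nor did the members share a high library: 3 were highest in MAdCAM1 1, 2 in MAdCAM1 2, 2 in IgG 1 and 0 in IgG 2. Over all tested genes the shares were 24.4%, 24.2%, 22.2% and 29.3%. IgG 2 was the lowest library for 5 of the 7, against 30.1% of all tested genes.

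**Figure D2:**
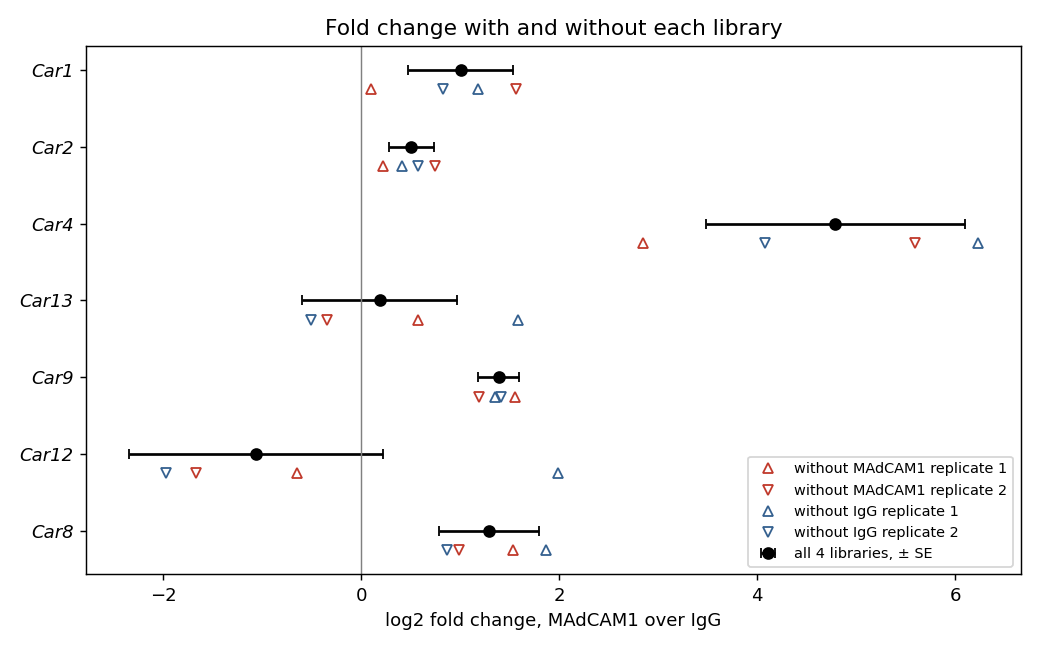
Log2 fold change of each enzyme, MAdCAM1 over IgG, with all 4 libraries (black, ± SE) and with 1 library left out (open triangles). Car9 keeps nearly the same value in each case, Car4 stays positive over a wide range, and Car12 and Car13 lie on both sides of 0.

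The classes were also compared within each library, where library scaling cancels. The mean log2 CPM of Car1, Car2, Car4 and Car13, which are linked to differentiation, exceeded that of Car9 and Car12 by 2.24 and 0.60 in MAdCAM1 and by 0.06 and 0.92 in IgG. The groups overlapped, because MAdCAM1 2 lay below IgG 2. The mean difference between the groups was 0.93, about equal to the pooled SD of 0.92 between mice of a group. It rested on Car4 and on MAdCAM1 1, being −0.04 without Car4 and 0.11 without MAdCAM1 1. Without Car12 and Car13 it was 0.57. Taken by class, the differentiation-linked mean log2 CPM was 6.08 and 5.13 in MAdCAM1 and 4.57 and 3.50 in IgG, and the groups did not overlap. Among single genes of the class, Car1 and Car13 each overlapped between the groups, so a shared rise of the class is not shown. Car4 weighed most. Its difference in mean log2 CPM, taken without a prior count, was 4.61, against 0.841 for Car1, 0.484 for Car2 and 0.47 for Car13. The hypoxia-linked mean was 3.84 and 4.53 in MAdCAM1 and 4.51 and 2.58 in IgG, and there the groups overlapped. Between Car4 and Car9 alone the ratio of levels was 3.90 and 0.453 in MAdCAM1 and 0.306 and 0.0652 in IgG, so Car9 exceeded Car4 in 3 of the 4 libraries.

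**Figure D3:**
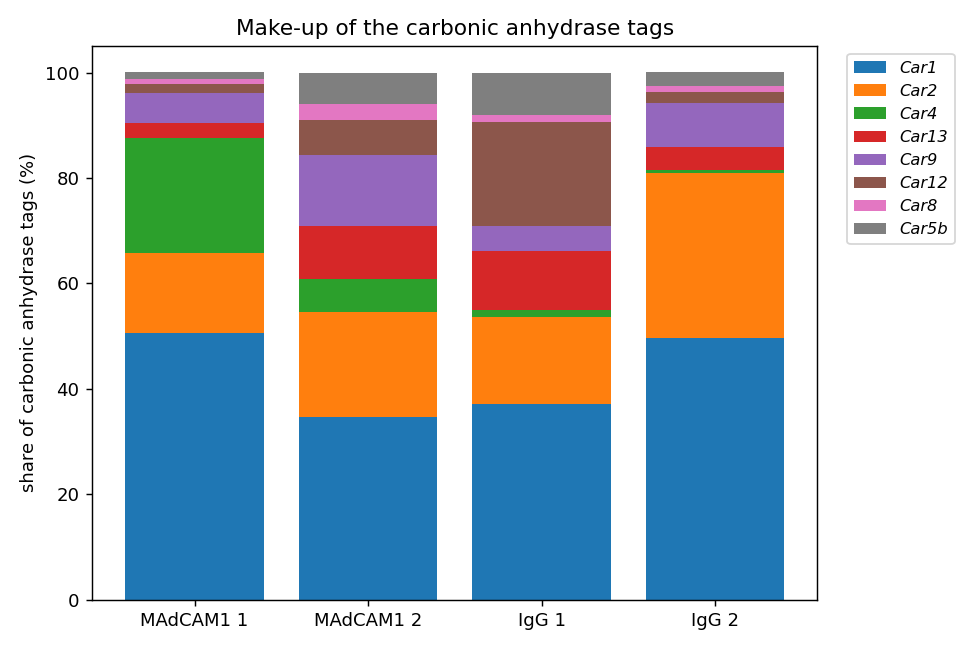
Share of each gene in all carbonic anhydrase tags of a library (stacked bars, in percent). Car1 holds between 34.7% and 50.6%, the Car4 share is widest in MAdCAM1 1 at 21.9%, and the Car12 share is widest in IgG 1 at 19.7%.

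Summed over the 8 listed genes, the family gave 455.5 and 241.5 CPM in MAdCAM1 and 237.2 and 138.0 CPM in IgG. MAdCAM1 1 stood apart at the top and IgG 2 at the bottom, with MAdCAM1 2 and IgG 1 nearly level. Their make-up differed all the same. Car9 took 13.6% (12.6 to 14.8%, Wilson) of the tags in MAdCAM1 2 against 4.63% (4.03 to 5.31%) in IgG 1, and Car12 6.60% (5.84 to 7.44%) against 19.7% (18.5 to 21.0%). In the low library, IgG 2, Car1 and Car2 together made up most of the tags, at 49.6% (47.5 to 51.6%) and 31.3% (29.4 to 33.2%). These are shares of a small total, since the level of Car1 was at its lowest there (68.4 CPM).

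Genes that work beside these enzymes were described from lists chosen with earlier results of these data known. The lists are not separate: Krt20 is counted under both surface colonocytes and colon epithelium, and Slc26a3 under both surface colonocytes and transport. Of 21 tested genes of surface colonocytes, 17 were higher in both MAdCAM1 libraries and 0 lower in both (19.7% and 18.7% over all tested genes), and their median log2 difference was 1.46. The quasi-likelihood test called 0 of them, the exact test 7 and DESeq2 9, all higher (0%, 1.06% and 1.53% over all genes), and 14 were higher at an unadjusted p under 0.05 (5.09% over all genes). The 4 with the smallest p were Cdhr2 and Cdhr5, cadherins that link microvilli (log2 fold changes 1.51 and 1.44), the keratin Krt20 (1.51) and the fatty acid binding protein Fabp2 (3.08). Slc26a3 exchanges chloride for the bicarbonate that carbonic anhydrase supplies, and for each of its tags there were 4.37 and 1.36 tags of Car4 in MAdCAM1 and 1.69 and 1.50 in IgG. The ratio was thus similar in 3 libraries and higher in MAdCAM1 1. In IgG it rests on few tags, with 59 of Car4 and 35 of Slc26a3 in IgG 1, and 12 and 8 in IgG 2. Whether the pair keeps a ratio can therefore not be said.

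Among 18 tested genes of bicarbonate, chloride and proton transport, 9 were higher in both MAdCAM1 libraries and 0 were lower in both (19.7% and 18.7% over all tested genes). The median log2 difference was 0.62, and it was 1.07 without IgG 1 and 0.44 without IgG 2. None was called by the quasi-likelihood test, where 6 were higher at an unadjusted p under 0.05 (5.09% over all genes), and 3 were called by the exact test (1.06%) and by DESeq2 (1.53%). Clca4a, of the family of chloride channel regulators, stood at 16.5 and 11.7 CPM in MAdCAM1 and at 1.54 and 2.16 CPM in IgG. Best2, a bestrophin anion channel that carries bicarbonate in goblet cells of the mouse colon, stood at 21.2 and 24.9 CPM in MAdCAM1 and 4.61 and 1.18 CPM in IgG. The sodium and proton exchanger Slc9a2 had 29.8 and 28.1 CPM in MAdCAM1 against 16.3 and 10.3 CPM in IgG. These 3 genes had no overlap between the groups, as was also the case for Slc26a3 (22.8 and 10.9 CPM in MAdCAM1, 1.99 and 0.495 CPM in IgG).

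Other genes of the hypoxia response, targets of the hypoxia-inducible factors together with the factors and their regulators Hif1a, Epas1, Hif3a, Arnt and Vhl, differed less than Car9 in the median. Of 31 tested, 13 were higher in both MAdCAM1 libraries and 2 lower in both (19.7% and 18.7% over all tested genes), the median log2 difference was 0.29, and it was 0.13 without MAdCAM1 1. No member was called by the quasi-likelihood test, the exact test or DESeq2, and 5 were higher at an unadjusted p under 0.05 (5.09% over all genes). Ankrd37, a HIF-1 target, stood at 18.8 and 19.2 CPM in MAdCAM1 and 10.2 and 7.67 CPM in IgG (log2 fold change 1.08, SE 0.24). The glycolytic enzyme Hk2 had a log2 fold change of 0.60, the mitochondrial protein Higd1a 0.40 and the HIF prolyl hydroxylase Egln3 0.50. Hif1a, which encodes a subunit of the factor itself, stood at 485 and 519 CPM in MAdCAM1 and 466 and 413 CPM in IgG (log2 fold change 0.19, SE 0.15), apart by a small gap.

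Markers of the cell types in the tumours were set beside the members. Of 9 colon epithelial markers, all listed, 8 were higher in both MAdCAM1 libraries and 0 lower in both (19.7% and 18.7% over all tested genes). The quasi-likelihood test called 0 of the 9, the exact test 2 and DESeq2 4, all higher (0%, 1.06% and 1.53% over all genes). Krt18 overlapped between the groups (log2 fold change −0.157). The 9 markers summed to 7601 and 6982 CPM in MAdCAM1 and 4711 and 4087 CPM in IgG. The 5 tested smooth muscle genes (Des, Tagln, Actg2, Cnn1 and Acta2, of a list of 8) summed to 106 and 1877 CPM in MAdCAM1 and 1656 and 89.0 CPM in IgG. They were high in IgG 1 and MAdCAM1 2, the libraries in which Car12, Car13 and Car5b were also highest, and their part in those levels was not tested. Red blood cells also hold Car1 and Car2. Alas2, of haem synthesis, was listed but too low to be tested (4 and 7 tags in MAdCAM1, 7 and 32 in IgG). Hbb-bs and Hbb-bt, the 2 of 8 red cell genes that were tested, summed to 32.4 and 42.7 CPM in MAdCAM1 and to 12.8 and 252 CPM in IgG. The library richest in them, IgG 2, was the lowest of the 4 for Car1 and held 43.2 CPM of Car2, between IgG 1 and MAdCAM1 2. The part of red cells in the levels of either enzyme was not tested.

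**Figure D4:**
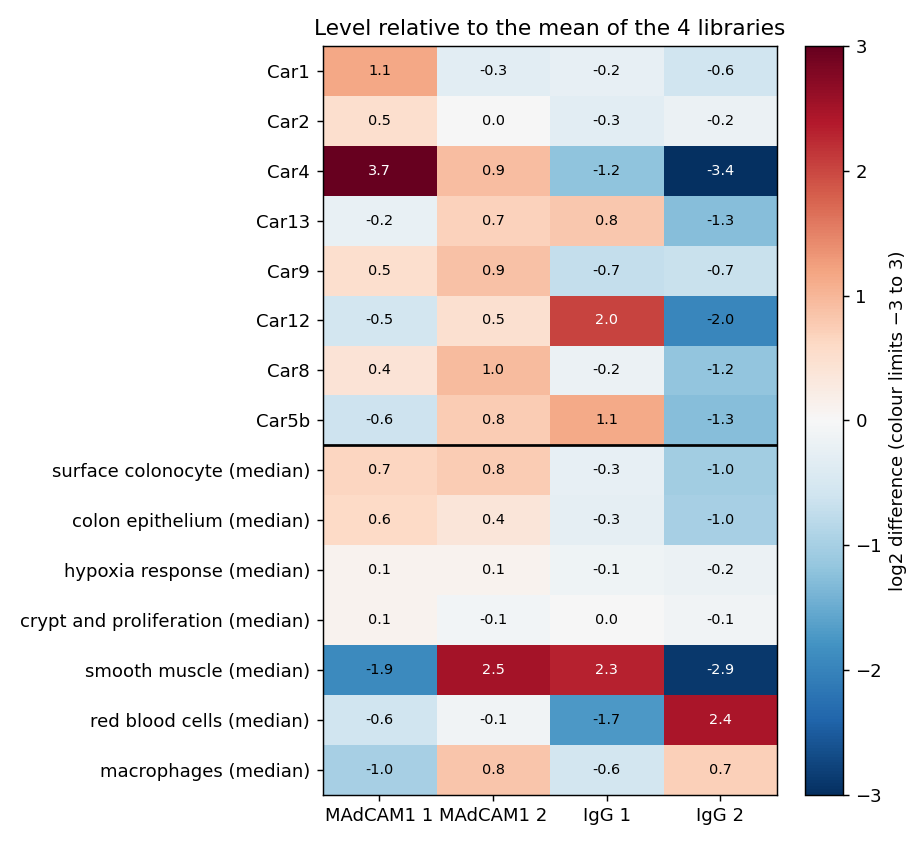
Log2 level of the 7 enzymes and Car5b, and median log2 level of marker lists, in each library relative to the mean of the 4 libraries. The enzyme rows use no prior count and the list rows a prior count of 2. Surface colonocyte and epithelial medians are positive in both MAdCAM1 libraries, whereas Car12, Car13, Car5b and the smooth muscle median are positive in MAdCAM1 2 and IgG 1.

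Other cell types were summed in the same way, although single genes departed from the sums. Macrophage genes (5 of 8 tested) summed to 128 and 493 CPM in MAdCAM1 and 142 and 484 CPM in IgG, neutrophil genes (5 of 8) to 196 and 736 CPM in MAdCAM1 and 289 and 513 CPM in IgG, and endothelial genes (5 of 6) to 14.9 and 56.6 CPM in MAdCAM1 and 23.4 and 42.8 CPM in IgG. These 3 sums overlapped between the groups. Camp, of neutrophil granules, was lower in both MAdCAM1 libraries, with 1 and 3 tags in MAdCAM1 against 37 and 30 tags in IgG. Only edgeR's exact test called it (adjusted p = 0.000793), a test that called 0.0628% of all tested genes lower. The quasi-likelihood test, DESeq2 (adjusted p = 0.0879) and limma-voom (adjusted p = 0.646) did not. Plasma cell genes (5 of 6) summed to 563 and 1053 CPM in MAdCAM1 and 634 and 587 CPM in IgG, sums made up mostly of Sdc1 and Xbp1, which other cells also express. Their median log2 difference was 1.78, and it was 0.21 without MAdCAM1 2. Of the 5, Jchain, Mzb1 and Derl3 were higher in both MAdCAM1 libraries and 0 were lower in both (19.7% and 18.7% over all tested genes). Derl3 was apart by a small gap only, with 2.10 CPM in MAdCAM1 1 and 1.98 CPM in IgG 2. None of the 5 was called by the quasi-likelihood test, limma-voom, the exact test or DESeq2 (0%, 0%, 1.06% and 1.53% called higher over all genes). Jchain, which joins units of secreted antibodies, stood at 42.7 and 449.5 CPM in MAdCAM1 and 8.14 and 35.4 CPM in IgG. Crypt and proliferation genes (11 of 12) had a median log2 difference of 0.07. Of the 11, 2 were higher in both MAdCAM1 libraries and 1 lower in both (19.7% and 18.7% over all tested genes). The part of these cell types in the levels of carbonic anhydrases was not tested.

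For each enzyme the 3 genes with the most similar profile were taken from 12017 named genes with a mean of at least 1 CPM, by the distance between centred log2 profiles over the 4 libraries. For Car4 they were the water channel Aqp8 (distance 0.798), Ccn3 (1.06) and the mucus lectin Zg16 (1.24). Aqp8 stood at 11.3 and 3.37 CPM in MAdCAM1 and 0.455 and 0.0618 CPM in IgG, the last being 1 tag. Ly6m, the snoRNA gene Snord118 and the tetraspanin gene Tspan33 were nearest to Car9, at distances of 0.139 to 0.174. Ly6m had 95.1 and 107 CPM in MAdCAM1 and 37.1 and 39.6 CPM in IgG.

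The profile of Car12 was most like those of Dpyd (0.192), which breaks down pyrimidines, Pitpnm3 (0.450) and the carbonyl reductase Cbr2 (0.562). Cbr2 stood at 43.1 and 72.6 CPM in MAdCAM1 and at 312 and 23.2 CPM in IgG, so its high library was IgG 1 too. Near Car13 lay the creatine kinase Ckb (0.165) and the class I antigen presentation gene H2-K1 (0.189). Clrn3, the copper oxidase Heph and the lipid enzyme Cds1 lay nearest to Car8, at 0.0900 to 0.126. Car2 was closest to Wrap73 (0.0440), the mitotic ubiquitin-conjugating enzyme gene Ube2c (0.0493) and the kinetochore gene Ndc80 (0.0715), and Car1 to Ces1f (0.216), Cbs (0.220) and Myl7 (0.242). With 4 libraries, similarity of this kind is a description only.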

How the data were processed

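The authors deposited raw CAGE tag counts per gene. Per the labels' protocols, tags of cap-trapped, random-primed cDNA (single reads of 75 nt) were mapped to GRCm39 with BWA 0.7.17 and HISAT2 2.0.5 and clustered with RECLU. Clusters under 0.1 CPM, over 200 bp or irreproducible at a rate of 0.1 or above were dropped, and a 90% overlap between replicates was required (bedtools 2.12.0), which can remove low or variable genes. The step from clusters to genes is not given in the sources used here.

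Here, filterByExpr (by group) kept 14331 of 14979 genes. After TMM scaling (factors 0.962 and 0.972 in MAdCAM1, 1.04 and 1.03 in IgG; 1 tag equals 0.0569 to 0.0700 CPM) edgeR 4.0.16 in R 4.3.3 fitted MAdCAM1 minus IgG and gave robust quasi-likelihood p-values, which were adjusted by Benjamini-Hochberg over all tested genes (threshold 0.05). The SE is the absolute log2 fold change over the square root of F. Log2 CPM used a prior count of 2. Named genes were the family, the 4 genes of lowest p in each list, and the nearest profiles (no predicted genes, none sharing all values with another gene), of which 1 is not reported here; others, such as Slc26a3, Hif1a and Epcam, were chosen after their values were seen. Aldoa has 2 identifiers, of which the first was used. Gene positions are from GENCODE M39. Alternatives were other scalings, filters and prior count, leaving out each library, a replicate block, DESeq2 1.42.0, limma-voom (limma 3.58.1) and edgeR's exact test. Levels relative to Epcam, a crossed block and class contrasts without Car4 or without Car12 and Car13 were added after the data were seen. Each test across genes was checked on simulated counts. The members, lists and tests were chosen with earlier results of these data known. Each library is 1 mouse per the design text, so p-values rest on the spread between mice.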

Additional observations from a re-analysis of the deposited data

How the results depend on the processing

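With 2 mice a group, the direction of Car12 and Car13 depended on single libraries. Leaving out each library gave log2 fold changes of 0.10 to 1.56 for Car1, 0.22 to 0.74 for Car2, 2.85 to 6.23 for Car4, 0.87 to 1.87 for Car8, 1.19 to 1.56 for Car9, −1.98 to 1.99 for Car12 and −0.51 to 1.58 for Car13. The sign turned for Car12 without IgG 1 (1.99) and for Car13 without IgG 2 (−0.51) and without MAdCAM1 2 (−0.34). Levels relative to Epcam, as differences of mean log2 ratios, turned Car2 to −0.10 and Car13 to −0.11. They gave 0.26 for Car1, 0.77 for Car8, 0.79 for Car9, 4.03 for Car4 and −0.66 for Car12. Differences of mean log2 CPM, the like measure without Epcam or a prior count, were 0.484 for Car2 and 0.47 for Car13. They were 0.841 for Car1, 1.354 for Car8, 1.375 for Car9, 4.61 for Car4 and −0.076 for Car12, so Car12 moved away from 0. In these mice Epcam itself was higher in both MAdCAM1 libraries. Neither the scalings nor the filters turned the sign of any member or made the groups overlap for Car2, Car4, Car8 or Car9 under the scalings. The number of genes called, 0 by the quasi-likelihood test in every fit run with it (lowest and highest 0 with a library left out), was 239 by DESeq2 and 161 by the exact test. Those tools called Car4 (log2 fold change 4.79, adjusted p = 0.000195 by DESeq2; 4.80, adjusted p = 0.0236 by the exact test) and Car9 (1.39, adjusted p = 0.00241; 1.39, adjusted p = 0.0203), which had quasi-likelihood adjusted p of 0.691 and 0.640. These p-values support nothing about Car4 or Car9, since the members were picked with this contrast in view. The class contrast of 0.93 ranged from 0.11 to 1.75 with a library left out, was 3.11 for Car4 against Car9 alone and −0.042 without Car4. No label says that a number shared by mice of both groups marks a shared litter, batch or day. The correlation of same-numbered deviations was −0.135 over 14331 genes, and with 2 mice a group it cannot decide this. The replicate block called 0 genes and gave 4.64 for Car4, 1.37 for Car9, −0.14 for Car12 (−0.13 by limma-voom) and 0.46 for Car13 (0.45 by limma-voom), and the crossed pairing also called 0. The class contrast under the block is 0.93 by construction, since its mean over pairs equals the difference of the group means. Depth limits Car8 and Car4 in IgG, where 12 to 59 tags were counted.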
